A study of Mus musculus with 6 samples.

Results

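Glutathione S-transferases were examined in V6.5 mouse embryonic stem cells (ESCs; a C57BL/6-129 line) in which cohesin or condensin subunits had been depleted. The 10 genes were Gsta3, Gsta4, Gstm1, Gstm2, Gstm5, Gsto1, Gstt1, Gstk1, Gstz1 and Mgst1, found by RefSeq accession in 11 of 26073 RefSeq rows, because Gsta3 has 2 rows. The set was chosen with Gsta3 already seen higher with CAPH2 and lower with SMC1 knockdown, so these values of Gsta3 are a description and carry no test. Each library came from cells infected with 1 lentiviral short hairpin RNA (shRNA) and selected with puromycin at 0.5 and then 1 μg/ml, the control included. There was 1 library for the GFP control hairpin, 1 for SMC1 (cohesin), 2 for CAPH2 (condensin II) and 2 for SMC2 (a subunit shared by both condensins). The paired libraries of CAPH2 and of SMC2 carry different hairpins, so the spread between them covers the hairpin as well as the culture. RNA from 652000 cells went into each library, and the cells had been grown for a passage off the irradiated fibroblast feeders.

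Glutathione S-transferases join the tripeptide glutathione to electrophilic compounds, which makes these more soluble and ready for export. The cytosolic enzymes fall into classes named by letter (alpha, mu, omega, theta, pi and zeta), while the kappa enzyme sits in mitochondria and peroxisomes and the MAPEG enzymes, such as Mgst1, are membrane proteins. Many of these genes are known targets of the transcription factor NRF2, which binds antioxidant response elements, and some respond to the aryl hydrocarbon receptor, which binds xenobiotic response elements. Cohesin and condensin are ring-shaped SMC complexes that organise chromosomes and are also found at enhancers and promoters of active genes in ESCs.

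The total count over all rows was 25467427 to 31337313 per library. Levels are given as RPKM, which are reads per kilobase of exon scaled to the size of each library. Changes are log2 RPKM over the GFP library, and intervals are exact 95% Clopper-Pearson intervals that cover counting error only. The comparisons with GFP have 1 control library and carry no p-value. Smc1a stood at 39.9% of its GFP level in the SMC1 library, Ncaph2 (CAPH2) at 21.0% and 34.8% in the CAPH2 libraries, and Smc2 at 70.7% and 71.9% in the SMC2 libraries. The targets also moved in the other knockdowns. Smc2 was at 157% with SMC1 and at 159% and 152% with CAPH2. Ncaph2 was at 67.3% with SMC1 and at 79.6% and 80.9% with SMC2, and Smc1a at 116% to 130% in the condensin libraries. Scaling to the ERCC spike-ins, which were added per cell, instead of to total reads raised every log2 change by 0.86 in the SMC1 library, by 0.63 in CAPH2 #1, by 0.64 and 0.57 in the SMC2 libraries, and lowered it by 0.05 in CAPH2 #2. The summed RPKM of 10 ESC markers was 1793 with SMC1 against 3324 with GFP, and 2752 to 2962 with the 4 condensin hairpins. Markers of other cells were present too: the summed RPKM of 10 fibroblast markers was 61.6 with GFP, 142 with SMC1 and 68.2 to 102 in the condensin libraries. That of 14 endoderm markers was 40.2 with GFP, 116 with SMC1 and 46.3 to 49.7 in the condensin libraries. For 8 trophectoderm markers it was 123, 288 and 93.8 to 139. A large part of the last 2 SMC1 sums came from few genes. From GFP to SMC1, Lrp2 went from 6.55 to 60.4 RPKM and Col4a1 from 12.2 to 34.9. Krt8 went from 51.4 to 117.5 and Krt18 from 61.0 to 156, while Lama1, Eomes and Hand1 were among the markers lower with SMC1. No marker on these lists was at 0 in all 6 libraries. In bulk RNA, a change in the share of a cell type and a change in RNA per cell cannot be told apart.

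The 3 members that were at least 2-fold lower in the SMC1 library are Gsta3, Gstm1 and Gstt1, and the 250 bases before their annotated starts are shown 5′ to 3′ on the gene's strand. Capitals mark the core of the antioxidant response element (TGACNNNGC) or of the xenobiotic response element (GCGTG). The sequences were read from mm9 at chr1:21230420-21230669 (plus strand), chr3:107820892-107821141 (minus strand) and chr10:75261330-75261579 (minus strand).
Gsta3: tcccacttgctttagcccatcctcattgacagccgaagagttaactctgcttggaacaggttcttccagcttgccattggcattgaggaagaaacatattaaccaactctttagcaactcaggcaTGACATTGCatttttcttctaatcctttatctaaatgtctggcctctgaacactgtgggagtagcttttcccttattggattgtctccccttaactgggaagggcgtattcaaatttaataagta
Gstm1: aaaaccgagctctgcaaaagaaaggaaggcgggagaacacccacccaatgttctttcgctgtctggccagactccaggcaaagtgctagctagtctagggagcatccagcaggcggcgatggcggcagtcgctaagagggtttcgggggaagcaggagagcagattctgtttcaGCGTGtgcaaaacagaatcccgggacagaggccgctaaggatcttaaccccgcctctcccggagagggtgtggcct
Gstt1: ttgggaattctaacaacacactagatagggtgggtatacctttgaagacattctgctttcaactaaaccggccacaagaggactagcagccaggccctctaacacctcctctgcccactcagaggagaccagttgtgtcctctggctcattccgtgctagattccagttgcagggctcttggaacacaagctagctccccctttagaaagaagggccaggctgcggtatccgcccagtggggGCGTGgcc
Gsta3 held the antioxidant core 125 to 117 bases before its start, while Gstm1 and Gstt1 each held the xenobiotic core, 76 to 72 and 8 to 4 bases before theirs. Both motifs were searched on either strand, and the xenobiotic core may overlap the antioxidant core. Over all 23016 upstream regions of this length, 10.7% held the antioxidant core and 35.1% the xenobiotic core. Among the members, 4 of 10 held the former (Gsta3, Gstm5, Gstz1 and Mgst1) and 5 of 10 the latter (Gsta4, Gstm1, Gstm2, Gstm5 and Gstt1). The regions of Gstm5 and Gstz1 lay wholly inside annotated exons of either strand. In that of Mgst1 the longest stretch outside exons was 29 bases, which did not hold its match. The share over all regions was not split by exon overlap. The 4 with the antioxidant core included members lower and members higher in the SMC1 library. CCAAT was found upstream of Gsta3, Gstm1 and Gstm2 and of 34.6% of all regions, and TATAAA was upstream of no member and of 11.4% of all regions. A match of letters is not evidence of binding. The Gsta3 window is poor in G and C, at 42% against a median of 56.4% over all regions.

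The members spanned a wide range of levels. Gsta4, an alpha-class enzyme known for conjugating the lipid peroxidation product 4-hydroxynonenal, was by far the most abundant at 409 RPKM in the GFP library. Gsto1 followed at 48.4 RPKM, then Gstm1 at 26.7, Gstz1 at 21.9, Gstm2 at 13.7, Gstt1 at 12.9, Gstm5 at 7.24, Mgst1 at 4.39, Gstk1 at 2.35 and Gsta3 at 1.31. Gsta3 was thus the member with the lowest level. Its range over the 6 libraries was the widest, at 5.71-fold against 1.25-fold for Gsta4. Gsta3 was chosen with its CAPH2 and SMC1 values already seen, so a wide range was built in and nothing is read from it. Counting error also weighs more on Gsta3, at 13 to 90 reads per library against 6227 to 9436 for Gsta4.

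**Figure D1:**
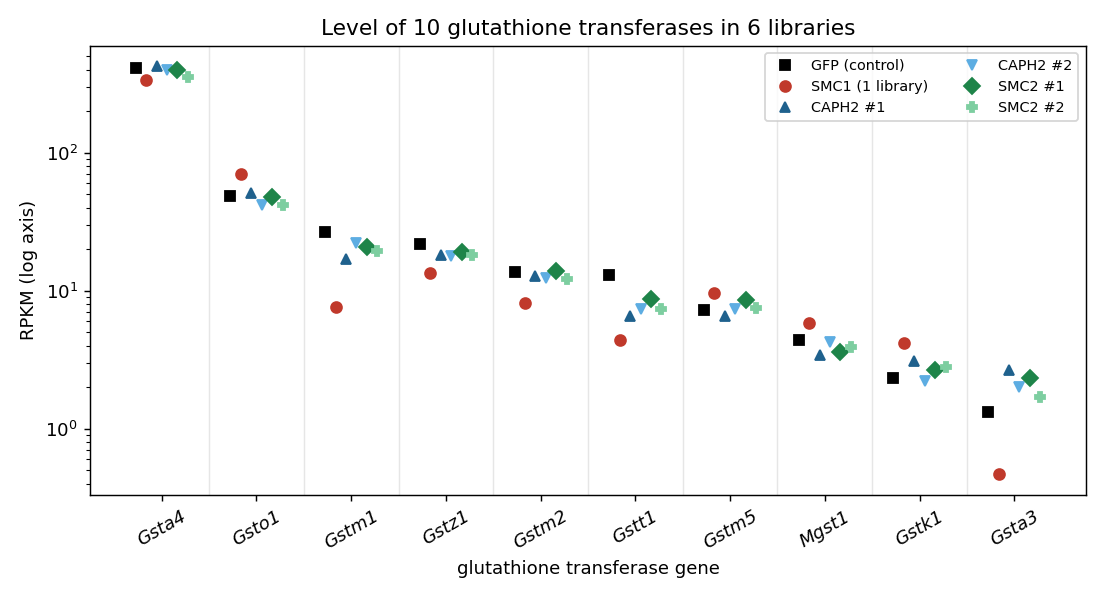
RPKM (log axis) of each of the 10 glutathione transferases in the 6 libraries, 1 point per library, with genes ordered by their level in the GFP library. The SMC1 point lies below the other 5 for Gsta3, Gstm1, Gstt1, Gstm2, Gstz1 and Gsta4 and above them for Gsto1, Gstm5, Mgst1 and Gstk1.

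Gsta3, the alpha-class member known for isomerising steroid precursors in other species, lies at chr1:21230670-21255640 on the plus strand (mm9, NM_001077353). It reached 1.31 RPKM under the control hairpin and 0.466 after SMC1 depletion. The CAPH2 hairpins #1 and #2 gave 2.66 and 2.02 RPKM, and the SMC2 hairpins #1 and #2 gave 2.33 and 1.69. Read counts in that sequence of libraries were 41, 13, 90, 55, 76 and 50. The SMC1 library was the lowest, and all 4 condensin libraries were above GFP, under ERCC scaling as well. The SMC1 level was 35.5% of GFP (17.4% to 67.6%), a log2 change of -1.50 (-2.52 to -0.57), or -0.63 with ERCC scaling. With CAPH2 the log2 change was 1.02 (0.47 to 1.59) for #1 and 0.62 (0.01 to 1.24) for #2, an average level of 178% of GFP. With SMC2 it was 0.82 (0.26 to 1.41) and 0.36 (-0.26 to 0.99), and the last of these intervals includes 0. The second row, NM_010356, has the same counts in every library with a shorter exon length, so the 2 rows are 1 measurement.

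Gsta4 (NM_010357, chr9:78039773-78057156, plus strand) moved little. Its level was 409 RPKM with GFP, 338 with SMC1, 422 and 397 with CAPH2, and 394 and 351 with SMC2. The SMC1 change of -0.28 (-0.32 to -0.23) is the smallest in size of the 10, and ERCC scaling turned it to 0.59. With 6227 to 9436 reads behind each value, counting error is small here and the spread between hairpins of one target, an SD of 0.06 for CAPH2 and 0.12 for SMC2 on the log2 scale, is the larger error.

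Gstm1, the mu-class enzyme that is abundant in liver, was lower than GFP in all 5 knockdown libraries, though under ERCC scaling not in the SMC2 libraries. It lies at chr3:107815169-107820891 on the minus strand (NM_010358). Its level was 26.7 RPKM with GFP, 7.56 with SMC1, 16.9 and 22.02 with CAPH2, and 20.7 and 19.4 with SMC2. The SMC1 library was far below the others, at 28.4% of GFP and a log2 change of -1.82 (-2.06 to -1.59), still -0.95 under ERCC scaling. The condensin changes were -0.65 (-0.82 to -0.49) and -0.28 (-0.44 to -0.11) with CAPH2 and -0.36 (-0.52 to -0.21) and -0.46 (-0.62 to -0.29) with SMC2, and ERCC scaling turned both SMC2 values above 0, to 0.27 and 0.11.

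The other mu members moved less and not in 1 direction. Gstm2 (NM_008183) was at 13.7 RPKM with GFP and 8.20 with SMC1, a change of -0.74 (-1.02 to -0.47) that ERCC scaling turned to 0.12. Its 4 condensin values, 12.1 to 13.9 RPKM, had intervals that included 0. Gstm5 (NM_010360), a mu member known from brain and testis, was at 7.24 RPKM with GFP and 9.59 with SMC1, a change of 0.41 (0.07 to 0.74), and at 6.54 to 8.62 in the condensin libraries, where every interval included 0. Gstm5 overlaps 4933431E20Rik on the opposite strand, and the library kit does not mark strand, so reads in the overlap cannot be assigned to 1 of the 2.

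Gstt1, a theta-class enzyme active on small halogenated compounds, was lower in every knockdown library, except in SMC2 #1 under ERCC scaling. It lies at chr10:75246558-75261329 on the minus strand (NM_008185). Its level was 12.9 RPKM with GFP, 4.36 with SMC1, 6.53 and 7.33 with CAPH2, and 8.65 and 7.42 with SMC2. The GFP library stood above the other 5, with SMC1 lowest. The SMC1 change was -1.57 (-1.93 to -1.22), or -0.70 under ERCC scaling. The CAPH2 changes were -0.99 (-1.28 to -0.70) and -0.82 (-1.12 to -0.53), and the SMC2 changes were -0.58 (-0.85 to -0.32) and -0.80 (-1.09 to -0.52). All 5 intervals lay below 0, although ERCC scaling moved SMC2 #1 to 0.06.

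Gstz1, the zeta-class enzyme of tyrosine breakdown (maleylacetoacetate isomerase), was also below GFP in all 5 knockdown libraries, but under ERCC scaling only in CAPH2 #2. Its level (NM_010363) was 21.9 RPKM with GFP, 13.5 with SMC1, 18.3 and 17.8 with CAPH2, and 19.1 and 18.2 with SMC2. The 4 condensin libraries lay close together between GFP and SMC1. The SMC1 change was -0.70 (-0.87 to -0.53) and the averages were -0.28 ± 0.03 for CAPH2 and -0.23 ± 0.05 for SMC2 (SD, n = 2), and ERCC scaling turned all 3 above 0, to 0.17, 0.06 and 0.37. Gstz1 overlaps Pomt2 on the opposite strand.

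Gsto1, Gstk1 and Mgst1 were higher in the SMC1 library than in any other. Gsto1 (NM_010362), an omega-class enzyme with thioltransferase activity, was at 48.4 RPKM with GFP, 69.5 with SMC1, 51.4 and 41.5 with CAPH2, and 48.0 and 41.9 with SMC2. The SMC1 change was 0.52 (0.41 to 0.63). Gstk1 (NM_029555), the kappa enzyme, was at 2.35 RPKM with GFP, 4.19 with SMC1 and 2.23 to 3.09 in the condensin libraries, and its SMC1 change was 0.84 (0.29 to 1.39). Mgst1 (NM_019946), a membrane enzyme that also reduces lipid peroxides, was at 4.39 RPKM with GFP, 5.85 with SMC1 and 3.41 to 4.28 in the condensin libraries. Its SMC1 change of 0.41 has an interval of -0.01 to 0.84. Under ERCC scaling the SMC1 values were 1.39, 1.70 and 1.28. That scaling adds 0.86 to every SMC1 value, so it could not have turned these directions. All 10 fibroblast markers, 10 of 14 endoderm markers and 5 of 8 trophectoderm markers were also higher in the SMC1 library. The part of such cells in the higher levels of Gsto1, Gstk1 and Mgst1 was not tested.

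In the SMC1 library, 3 of 10 members were at least 2-fold lower (Gstm1, Gstt1 and Gsta3) and 0 were at least 2-fold higher. Over all 15538 rows with a GFP RPKM of at least 1, the shares were 8.17% lower and 6.49% higher. Under ERCC scaling, which adds 0.86 to every row of the SMC1 library, 0 members were at least 2-fold lower. Then 4 were at least 2-fold higher (Gstm5, Gsto1, Gstk1 and Mgst1). The shares over all rows were not computed under that scaling, so these counts are not read as a trait of the members. The median change of the 10 members was -0.49, against -0.02 for all rows, and the median size of change was 0.72 against 0.38. Counting intervals lay below 0 for 6 members and above 0 for 3. Gsta3 was no longer past 2-fold with a pseudocount of 1, at -0.66, which left 2 of 10. Gsta3 was chosen for its value in this comparison, so nothing is read from the count.

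For the CAPH2 average, 0 of 10 members were at least 2-fold higher or lower, against 0.405% and 0.579% of all rows. For the SMC2 average the count was also 0 of 10, against 0.219% and 0.483%. The largest averages were those of Gstt1 and Gsta3: Gstt1 was at -0.90 ± 0.12 with CAPH2 and -0.69 ± 0.16 with SMC2, and Gsta3 at 0.83 ± 0.28 and 0.61 ± 0.33 (SD of 2 hairpins). CAPH2 #1 alone put Gsta3 past 2-fold, at 1.02, and so did ERCC scaling for both averages, at 1.21 and 1.22. With ERCC scaling the single hairpins were at 1.65 and 0.57 for CAPH2 and at 1.46 and 0.93 for SMC2, so #2 of each pair stayed under 2-fold. The median over members was -0.09 with CAPH2 and -0.12 with SMC2. All comparisons share the GFP library, so a GFP level that is off would move every knockdown the same way.

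**Figure D2:**
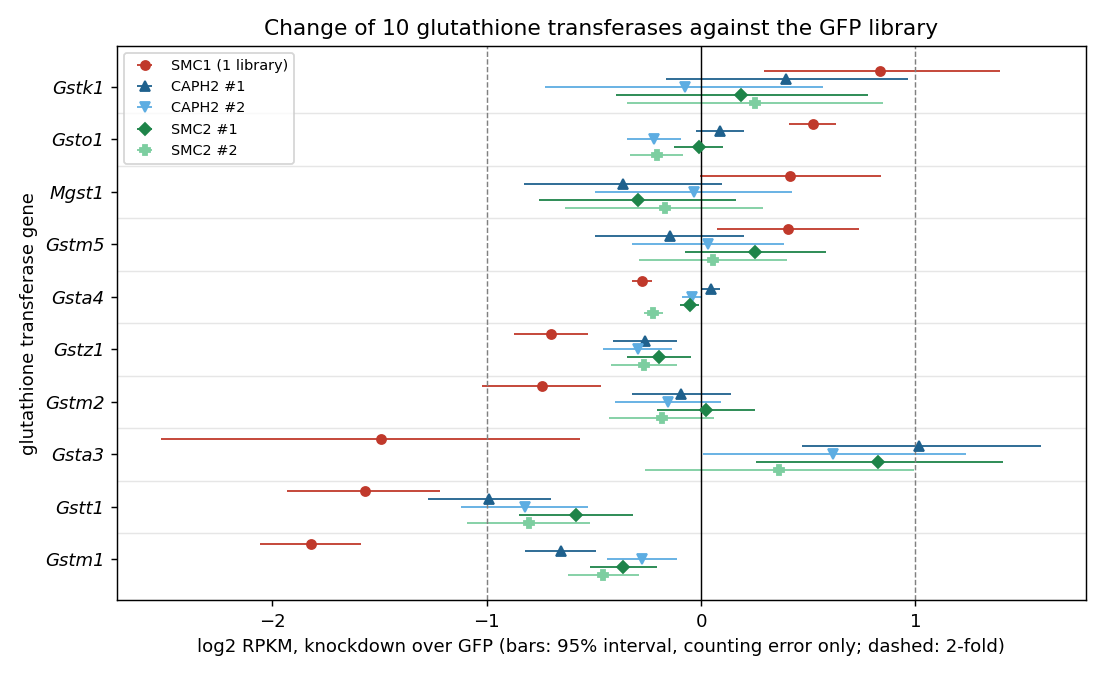
Log2 RPKM over the GFP library for the 10 members, 1 point per knockdown library, with bars for the exact 95% counting interval and dashed lines at 2-fold. Gsta3 has its SMC1 point at -1.50 and all 4 condensin points above 0, while Gstm1, Gstt1 and Gstz1 have all 5 points below 0, some of which ERCC scaling turns above 0.

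CAPH2 against SMC2 was the only comparison with 2 libraries on each side and so the only one tested, with edgeR's quasi-likelihood test over 18245 rows. It called 1 row at an adjusted p under 0.05 (0.00548% of rows), which was Smc2 itself. Smc2 was at 26.6 RPKM with GFP, 42.3 and 40.6 with CAPH2, and 18.8 and 19.1 with SMC2. Its difference thus joins a level above GFP with CAPH2 to a level below GFP with SMC2. Of the 11 member rows, 0 were called, and 0 had an unadjusted p under 0.05, a level reached by 565 rows (3.10%). DESeq2 also called 0 member rows. The edgeR test did not call Ncaph2, which was at 16.9 and 27.9 RPKM with CAPH2 and 63.9 and 64.9 with SMC2. It thus missed a large difference in a targeted gene, and the lack of member calls says little about smaller ones. For Gsta3 the log2 difference was 0.21 with an SE of 0.24 (edgeR adjusted p = 0.9995), higher in CAPH2 by less than the spread between hairpins. The CAPH2 libraries were also used to choose Gsta3, so nothing is read from its p-value. The other differences ran from -0.23 with an SE of 0.16 for Gstm5 and -0.23 with an SE of 0.15 for Gstt1 to 0.13 with an SE of 0.07 for Gsta4. These sizes and errors do not show that the knockdowns act alike.

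Several members lie in clusters of related genes. The mu genes span 149 kb at chr3:107698772-107847774, with Gstm5 at one end on the plus strand and the others on the minus strand. In the SMC1 library Gstm5 was at 0.41, and its neighbours in order were at -0.80 (Gstm7), -1.67 (Gstm6), -2.28 (Gstm3), -0.74 (Gstm2), -1.82 (Gstm1) and -0.74 (Gstm4). Gstm5 was thus the one mu gene above its GFP level, and ERCC scaling, which adds 0.86 to each, also put Gstm7, Gstm2 and Gstm4 above it. Gstm3 was imprecise, with 14 reads in the SMC1 library and an interval of -3.22 to -1.44. In the theta cluster on chromosome 10, Gstt2 was at -1.74 and Gstt1 at -1.57, while Gstt3 was at -0.42, a value that ERCC scaling puts above 0. Gstt2 was also below GFP in all 4 condensin libraries, at -0.88 and -0.68 with CAPH2 and -0.78 and -0.59 with SMC2, beside the values of Gstt1 given earlier. In the pi cluster on chromosome 19, Gstp2 was at -2.44, Gstp3 at -2.54 and Gstp1 at -0.41, the last of which ERCC scaling puts above 0. Gstp3 was imprecise too, with 8 reads in the SMC1 library and an interval of -3.82 to -1.45. Gstp2 had 19 reads there and an interval of -3.22 to -1.73. Most of the exon sequence of Gstp1 and Gstp2 has exact copies elsewhere, also in each other, so reads are poorly assigned between these genes.

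**Figure D3:**
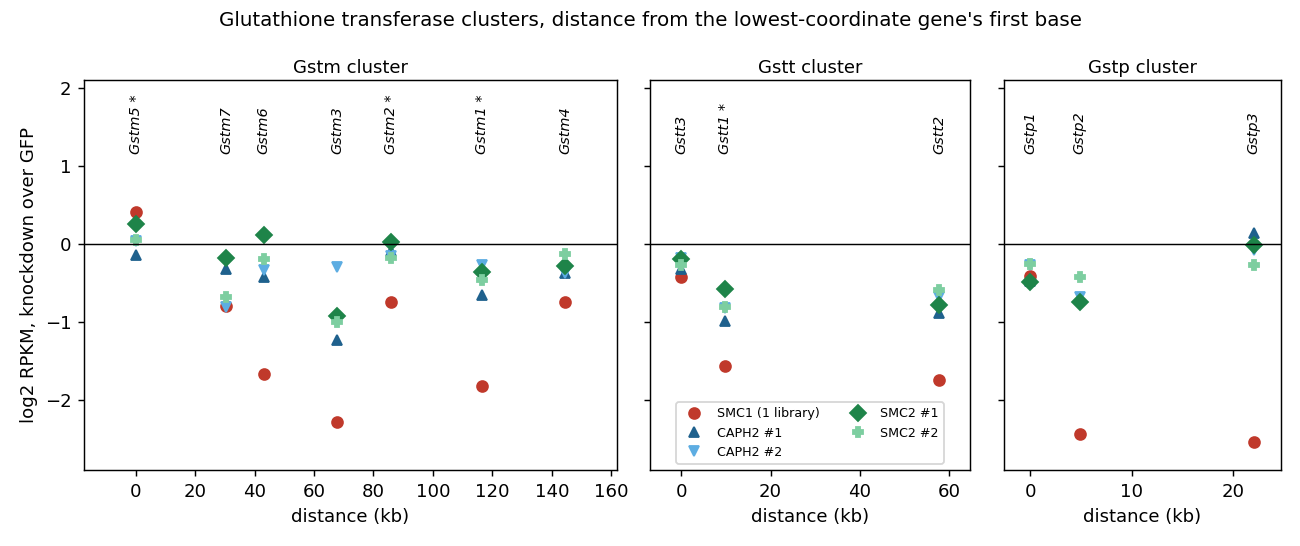
Log2 RPKM over GFP of the expressed genes of the mu, theta and pi clusters, plotted against distance in kb from the first base of the lowest-coordinate gene, with 1 point per knockdown library and asterisks on the 10 members. In the SMC1 library Gstm5 stands at 0.41, above the other 6 mu genes, which range from -2.28 to -0.74 and of which ERCC scaling puts Gstm7, Gstm2 and Gstm4 above 0.

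Near-identical genes limit what these counts can say about the mu members. The authors discarded reads that aligned to more than 2 places, so the exons of each gene were cut into 32-base windows and every exact copy in mm9 was counted. Reads of another length, or with the mismatches the aligner allowed, would give other shares. Of the Gstm1 windows, 56.6% were in 1 place, 30.3% in 2 and 13.2% in more. The copies of Gstm1 lay in Gstm2-ps1, Gstm3, Gm6665 and Gstm2, among other places. Of the Gstm2 windows, 45.0% were in 1 place, 41.2% in 2 and 13.8% in more, with copies in Gm6665, inside the span of Wdr33, and in Gm12499 and Gstm1. The other 8 members had 97.5% to 100% of windows in 1 place. Gstm1 and Gstm2 are therefore uncertain in level, and a read in a 2-place window could have been placed in either copy. Outside the members, Gstp1 and Gstp2 had only 18.8% and 7.7% of windows in 1 place, against 69.3% for Gstm3. The Gsta3 model used for the windows has 1157 exonic bases against 1450 in the counted row, so part of that row was not scanned, and the Mgst1 model likewise has 913 against 943.

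**Figure D4:**
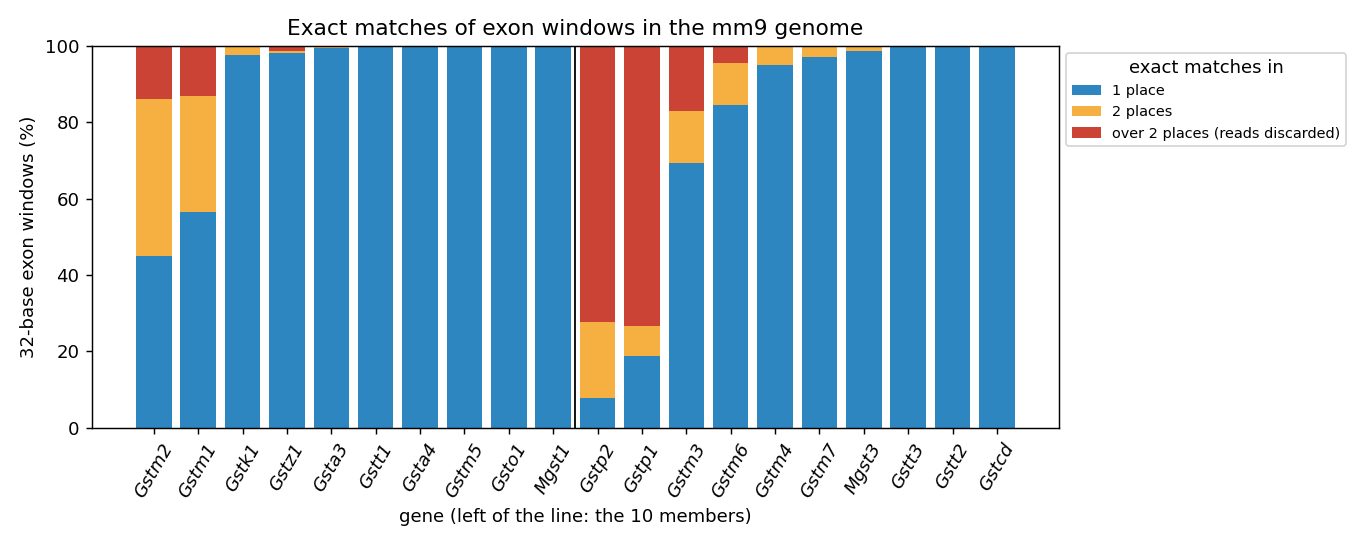
Share of 32-base exon windows found in 1, in 2 or in more than 2 places of the mm9 genome by exact match, for the 10 members (left of the line) and 10 of the 12 other expressed glutathione transferases. Gstm1 and Gstm2 stand apart from the other 8 members, with 56.6% and 45.0% of windows in 1 place.

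Of 12 other glutathione transferases with a GFP RPKM of at least 1, 11 were below GFP in the SMC1 library, 5 of them at least 2-fold (Gstm3, Gstm6, Gstt2, Gstp2 and Gstp3), and the median was -0.80. Over all rows 51.8% were below GFP and 8.17% at least 2-fold lower. The exception was Gstcd at 0.21 (0.09 to 0.33), a protein with only a domain in common with the enzymes. Mgst3, a membrane enzyme of the MAPEG family, was at -0.79 (-1.03 to -0.57) with SMC1 and at -0.75 and -0.65 in the CAPH2 and SMC2 averages. In the same averages 0 of the 12 passed 2-fold, with medians of -0.37 and -0.30. Genes of glutathione synthesis and turnover had a median of -0.53 with SMC1, and 4 of 15 were at least 2-fold lower. These were Gss, glutathione synthetase, at -1.10, the peptidase Lap3 at -1.25, the gamma-glutamyl transferase Ggt1 at -2.22 and the oxoprolinase Oplah at -1.65. ERCC scaling adds 0.86 to each SMC1 value, which turns both list medians and that of the members above 0 and leaves Gss, Lap3, Ggt1 and Oplah below it.

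Peroxidases and the thioredoxin system had a median of -0.11 with SMC1, close to that of all rows. Of 24 genes, 3 were at least 2-fold lower, Gpx4 at -1.65, Gpx2 at -1.91 and mitochondrial Sod2 at -1.68, and 1 was at least 2-fold higher, the endoplasmic reticulum peroxidase Gpx8 at 1.82. Gpx4 is the enzyme that reduces lipid hydroperoxides in membranes, and it went from 153 to 48.6 RPKM. Of 19 NRF2 targets 8 were above and 11 below GFP, with a median of -0.14, and 1 was past 2-fold, Blvrb at -1.17. Me1 was at 0.73, Cbr3 at -0.70 and Nqo1 at -0.71. The other targets above GFP were Gclc at 0.68, Txnrd1 at 0.66, Srxn1 at 0.32, Hmox1 at 0.16, Gclm at 0.10, Ugdh at 0.06 and Abcc4 at 0.03. NRF2 regulators had 0 of 9 past 2-fold, with a median of -0.01. Among them Maff was at -0.64 with SMC1 and at -0.95 and -0.90 in the CAPH2 and SMC2 averages. It was past 2-fold in CAPH2 #1, at -1.27, and in SMC2 #1, at -1.05. Among 5 aryl hydrocarbon receptor genes, Cyp1b1 was at 1.92 with SMC1 and at 1.11 in the CAPH2 average, and Aldh3a1 at -3.40 on 4 reads. Cyp1b1 is also expressed in fibroblasts, and it was the one gene of the lists past 2-fold for the CAPH2 average among those with a GFP RPKM of at least 1. ERCC scaling adds 0.86 to each SMC1 value, which turned every NRF2 target below GFP, Nqo1 and Cbr3 included, except Blvrb. It also put Maff and the medians of the peroxidase, NRF2 target and NRF2 regulator lists above 0.

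**Figure D5:**
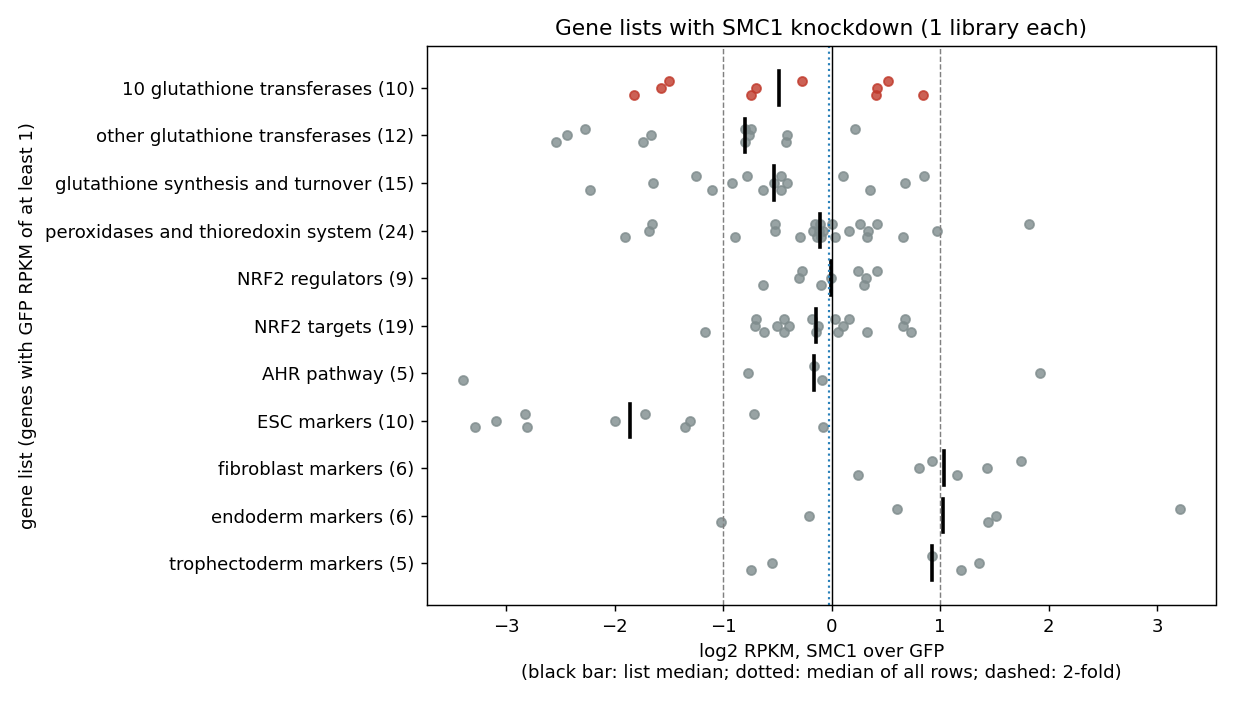
Log2 RPKM of SMC1 over GFP for each gene with a GFP RPKM of at least 1 in the 10 members (red) and in 10 other lists (grey), with the median of each list as a black bar and the number of genes in brackets. The members run from -1.82 to 0.84, the ESC markers have a median of -1.86 and the fibroblast markers one of 1.04.

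Marker genes moved in the same library. With SMC1, 8 of 10 ESC markers were at least 2-fold lower, among them Esrrb at -3.29 and Klf4 at -3.09, with a median of -1.86. Fibroblast markers had a median of 1.04, with 3 of 6 expressed genes at least 2-fold higher, endoderm markers one of 1.02 (3 of 6 higher and 1 lower) and trophectoderm markers one of 0.92 (2 of 5 higher). Of the 6 endoderm genes 4 were above GFP, with Lrp2 at 3.21, and 2 were below, Lama1 at -1.02 and Amn at -0.21. Of the 5 trophectoderm genes 3 were above GFP and 2 below, Eomes at -0.55 and Hand1 at -0.74. In the condensin averages 0 genes of these 4 lists passed 2-fold among those with a GFP RPKM of at least 1. Below that level, Dcn, Cubn, Cdx2, Foxa2 and Sox17, named after their values were seen, were at 1.38 to 2.62 in the CAPH2 average, on 1 to 44 reads in the GFP library. In the SMC2 average those genes were at 0.43 to 2.35. Other markers below that level were lower in the CAPH2 average, with Gata6 at -0.03, Pdgfra at 0.24 and Sox7 at 0.45. Postn was at 0.51, Twist2 at 0.62 and Gata3 at 0.81. The part of these changes in the members' values was not tested.

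Genes with a profile most like that of Gsta3 were picked by the distance between log2 RPKM profiles centred over the 6 libraries, among 12122 genes. The nearest were Ubd (distance 0.53), Capsl (0.55), Zfp607b (0.55), Soat2 (0.60) and Triml2 (0.63). Ubd, a ubiquitin-like modifier, was at 2.23 RPKM with GFP, 0.777 with SMC1, 3.34 and 3.86 with CAPH2, and 3.03 and 2.51 with SMC2. Triml2, the most abundant of them, was at 47.4 RPKM with GFP, 13.1 with SMC1 and 47.7 to 54.6 in the condensin libraries. The member nearest to Gsta3 was Gstm1, at rank 387, and Gstm5, Gsto1, Gstk1 and Mgst1 were at ranks 9551 to 10722. Libraries differ in depth and marker content, which all genes share, so likeness here is a description.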

How the data were processed

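RNA-seq of 6 libraries of V6.5 ESCs was analysed. The authors aligned reads to mm9 with Bowtie (-e 70 -k 1 -m 2 -n 2) and counted exonic reads per RefSeq row with RPKM_count 2.3.5; the read length is not given in the sources used here. The deposited files give raw counts and RPKM, and the authors scaled RPKM to each library's own reads. The members and lists were chosen with earlier results of these data known. Symbols came from RefSeq accessions for 25349 of 26073 rows.

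Log2 changes used deposited RPKM, no pseudocount and rows with a GFP RPKM of at least 1. CAPH2 against SMC2 was fitted in edgeR 4.0.16 by the quasi-likelihood test with TMM factors and Benjamini-Hochberg adjustment on raw counts with at least 10 in at least 2 libraries, after a test on simulated data. DESeq2 1.42.0 was an alternative, as were other scalings and filters, a pseudocount of 1, a single row for each gene, and dropping hairpins in turn. Nothing says that libraries came from separate cultures, so p-values measure only the spread between these libraries. Genes were drawn by a fixed rule: all members, other transferases with an RPKM of at least 1, up to 4 per list by size of change, the targets, and the 5 genes nearest Gsta3 with a mean of at least 50 counts. Not all of these are named in the text, and some markers and NRF2 targets outside the rule are. Sequences came from mm9 (NCBI build 37), motifs were searched in 250 bases, and Python 3.11.15 with scipy 1.17.1 was used.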

Additional observations from a re-analysis of the deposited data

Results flagged for a closer look

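Members in which every library of 1 knockdown lay on the other side of GFP from every library of another are given here. The difference between knockdowns was not tested, since SMC1 and GFP have 1 library each, and 3 of 10 members met this condition. Gsta3 was at -1.50 with SMC1 and at 0.62 to 1.02 with CAPH2. With SMC2, Gsta3 was at 0.36 to 0.82 against the same -1.50, and these directions held under ERCC scaling. Gsto1 was at 0.52 with SMC1 and at -0.21 to -0.01 with SMC2, where ERCC scaling put all 3 values above 0. Mgst1 was at 0.41 with SMC1, at -0.36 to -0.03 with CAPH2 and at -0.29 to -0.17 with SMC2, and the counting interval of each of these values includes 0. Under ERCC scaling Mgst1 was at 1.28 with SMC1, 0.34 and 0.40 with SMC2, and 0.27 and -0.08 with CAPH2, so it no longer met the condition for either.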

How the results depend on the processing

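TMM and DESeq2 scaling left every member's log2 change over GFP within its error. ERCC scaling moved most and turned 7 values that counting error had set apart from 0: with SMC1, Gsta4 to 0.59, Gstm2 to 0.12 and Gstz1 to 0.17, with CAPH2 Gstz1 to 0.059, and with SMC2 Gsta4 to 0.47, Gstm1 to 0.20 and Gstz1 to 0.37. Members past 2-fold then numbered 4 with SMC1, all higher, and 1 each with CAPH2 and SMC2 (Gsta3). The shares of all rows past 2-fold were not computed under ERCC scaling. Leaving out a hairpin gave 0 to 1 members past 2-fold with CAPH2, the 1 being Gsta3 without CAPH2 replicate 2, and 0 to 0 with SMC2. A pseudocount of 1 brought Gsta3 from -1.50 to -0.66 with SMC1 and from 0.83 to 0.53 with CAPH2. Members past 2-fold with SMC1 then numbered 2 of 10, and 2 of 7 with a GFP RPKM of at least 5. The rows called for CAPH2 against SMC2 numbered 5 with DESeq2, 3 with DESeq2 size factors, 4 with ERCC counts as library size and 8 with no count filter, against 1. With the replicate block 15 were called, and no member call changed. The replicate numbers are shared names only (the correlation of same-numbered deviations was 0.108, over 2 pairs). Leaving out a library gave 1 to 404 calls, with 404 without CAPH2 replicate 2, 29 without CAPH2 replicate 1 and 3 without SMC2 replicate 1. The lone library of a group is then assumed to vary like the others. Under every setting run 0 member rows were called, with adjusted p from 0.478 to 1. Depth limits Gsta3 most, at 13 to 90 reads.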
